A study of Homo sapiens with 38 samples.

Results

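The genes described here are 10 members of the NOTCH pathway: the ligands JAG1 and JAG2, the receptors NOTCH1, NOTCH2 and NOTCH3, and the effectors HES1, HES5, HEY1, HEY2 and NRARP. They were taken by symbol from a table of 43412 genes, and all 10 were found and passed the filter on low counts that left 24304 genes for testing. The cells were H9, an established human embryonic stem cell line, seeded at confluence and moved from mTeSR1 to RPMI1640 with B27 (without vitamin A) when treatment began. In the CHIR99021 arm, an inhibitor of the kinase GSK3 was given at 10 µM and cells were taken at 0, 8, 16, 24, 48 and 72 h. The Wnt3a arm received the recombinant ligand at 240 ng/ml, with cells taken at 0, 8, 24, 48, 72, 96 and 120 h. The bcat arm was a derived H9 line with an integrated deltaN90 beta-catenin, a form without the part needed for its destruction, given doxycycline at 1 µg/ml and taken at 0, 8, 16, 24, 48 and 72 h. The labels call the samples of a group biological replicates and say no more, so p-values measure the spread between these libraries only. Each 0 h group was untreated, the bcat 0 h group being the uninduced line, for which the labels give no number of clones. No culture received the new medium alone and none of the parental cells received doxycycline, so treatment, medium and elapsed time cannot be told apart in any change from 0 h.

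NOTCH signalling runs between touching cells: a Jagged or Delta-like ligand on one cell binds a NOTCH receptor on its neighbour, proteases cut the receptor, and the freed intracellular domain joins RBPJ and a Mastermind protein on DNA. The best known target genes are the HES and HEY repressors and NRARP, which binds the active complex and dampens it. HES1 also answers to other signals, so its level is not by itself a measure of receptor activity. In the presomitic mesoderm, the tissue that forms somites, NOTCH works with WNT and FGF signalling in the segmentation clock, with DLL1, DLL3, LFNG and HES7 among its parts.

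The 37 libraries compared (2 per group, and 1 at Wnt3a 72 h, where both deposited columns were identical) held 2.45 M to 65.7 M estimated counts, the median being 18.99 M. CTNNB1, the gene of beta-catenin, lay at 652 and 750 CPM (counts per M counts) in the bcat arm before induction and at 1994 to 2908 CPM at every later time. AXIN2, a direct WNT target, rose at every time with CHIR99021 (log2 change 3.30 to 4.37) and in the bcat arm (2.37 to 3.90). With Wnt3a it rose at 8 h (1.58), 48 h (0.92) and 120 h (1.04) and fell at 24 h (-0.71). At 72 and 96 h of Wnt3a it was not called (0.53 and -0.26). SP5, another WNT target, stood in the Wnt3a arm at 0 and 0.0587 CPM at 0 h, 8.74 and 16.7 at 24 h, and 32.7 and 56.4 at 96 h. The summed level of 8 pluripotent stem cell markers, 3948 to 5367 CPM at 0 h, was lowest at 48 h with CHIR99021 (1726 to 1772 CPM, and 2153 to 2194 at 72 h), at 96 h with Wnt3a (2249 to 2423 CPM, and 2692 to 2786 at 120 h) and at 72 h in the bcat arm (1746 to 1955 CPM). None of the 8 markers was at 0 in any group. 4 libraries stood apart: bcat 0 h replicate 1, bcat 24 h replicate 1 and bcat 48 h replicate 2, with 34.0%, 60.3% and 60.2% of their counts from ribosomal RNA, and Wnt3a 0 h replicate 1, the shallowest.

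HES1, the repressor most often read as a NOTCH target, was the member with the largest and steadiest changes. With CHIR99021 it fell at all 5 times, in the bcat arm it fell at the first 3 of 5, and with Wnt3a it rose at 5 of 6. In the CHIR99021 arm its libraries stood at 30.4 and 34.9 CPM at 0 h, 11.0 and 7.54 at 8 h, 3.33 and 1.82 at 16 h, 5.28 and 5.15 at 24 h, 9.69 and 11.2 at 48 h, and 7.42 and 8.84 at 72 h. Every treated library lay below both 0 h libraries, and the 16 h libraries were the lowest of the study. The fall was 13.6-fold at 16 h (log2 change -3.76 ± 0.27 SE, adjusted p = 1.18e-11, n = 2 and 2) and -1.80 ± 0.23, -2.65 ± 0.25, -1.65 ± 0.23 and -2.02 ± 0.23 at 8, 24, 48 and 72 h.

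In the bcat arm HES1 was at 21.2 and 32.7 CPM at 0 h, 9.14 and 5.80 at 8 h, 6.21 and 6.86 at 16 h, 11.5 and 8.15 at 24 h, 22.4 and 29.0 at 48 h, and 24.4 and 22.8 at 72 h. The libraries of the first 3 treated times lay below both untreated ones, and those of 48 and 72 h fell within their range. HES1 fell by -1.83 ± 0.25, -2.10 ± 0.25 and -1.52 ± 0.24 (adjusted p = 2.52e-06, 5.75e-07 and 3.48e-05) at 8, 16 and 24 h. At 48 and 72 h the values were -0.12 ± 0.24 and -0.23 ± 0.24 (adjusted p = 0.789 and 0.514) and were not called.

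In the Wnt3a arm HES1 began lower, at 5.50 and 8.13 CPM. It was at 5.64 and 5.24 CPM at 8 h, 18.4 and 18.8 at 24 h, 26.2 and 26.6 at 48 h, 22.6 in the lone library of 72 h, 40.6 and 32.5 at 96 h, and 29.7 and 24.1 at 120 h. From 24 h on every library lay above both 0 h libraries. The changes were 1.31 ± 0.25, 1.82 ± 0.25, 1.59 ± 0.28, 2.29 ± 0.25 and 1.85 ± 0.25 (adjusted p = 2.83e-04, 2.68e-06, 1.05e-04, 1.50e-08 and 1.16e-06) at 24, 48, 72, 96 and 120 h, and -0.47 ± 0.25 (adjusted p = 0.446, not called) at 8 h. All 13 calls of HES1 against 0 h held in every alternative fit and with each library of a group of 2 left out in turn. The lone library of Wnt3a 72 h could not be left out, so the call at that time rests on it.

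Part of the contrast between arms lay in the untreated cultures. Untreated HES1 was 4.36-fold lower in the Wnt3a arm than in the CHIR99021 arm (-2.12 ± 0.25, adjusted p = 1.05e-06), so the Wnt3a rise and the CHIR99021 fall started from different levels. What set the untreated cultures apart was not tested. Side by side at matched times, the 6 libraries of 8 h, over all 3 arms, lay between 5.24 and 11.0 CPM, although their starting levels had run from 5.50 to 34.9. At 48 h the Wnt3a libraries (26.2 and 26.6) fell inside the range of the bcat libraries (22.4 and 29.0), and the CHIR99021 libraries (9.69 and 11.2) lay below them all. Over the 19 groups, the highest HES1 levels were those of Wnt3a 96 h and CHIR99021 0 h, whose libraries overlapped, and the lowest those of CHIR99021 16 h.

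The promoter windows of the HES and HEY targets are given because their RBPJ sites are the route by which NOTCH is known to act on them. Of the 10 members, 9 had a window in the RefSeq promoter table (GRCh38.p14), and HEY1 did not. The 250 bases before the transcription start were searched on both strands for the RBPJ core TGGGAA, the TCF/LEF core CTTTGA, and the HES and HEY binding motifs CACNAG (N-box) and CACGNG (class C site), the last pair overlapping where a site reads CACGAG. The RBPJ core was found in HES1, HES5 and HEY2 and in none of the other 6, against 20.8% of all 35116 promoters. HES1 (chr3:194135898-194136147, plus strand) held it at 84 and 70 bases before the start, HES5 (chr1:2530264-2530513, minus strand) at 80 and 224 bases, the latter on the opposite strand, and HEY2 (chr6:125749382-125749631, plus strand) at 213 bases on the opposite strand. Each is written 5′ to 3′ along the gene, with RBPJ cores of either strand in capitals.
HES1: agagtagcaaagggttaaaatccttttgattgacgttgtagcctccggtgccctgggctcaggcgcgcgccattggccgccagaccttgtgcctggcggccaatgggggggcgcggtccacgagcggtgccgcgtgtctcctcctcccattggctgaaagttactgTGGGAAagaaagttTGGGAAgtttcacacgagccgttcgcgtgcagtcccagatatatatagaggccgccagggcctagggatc
HES5: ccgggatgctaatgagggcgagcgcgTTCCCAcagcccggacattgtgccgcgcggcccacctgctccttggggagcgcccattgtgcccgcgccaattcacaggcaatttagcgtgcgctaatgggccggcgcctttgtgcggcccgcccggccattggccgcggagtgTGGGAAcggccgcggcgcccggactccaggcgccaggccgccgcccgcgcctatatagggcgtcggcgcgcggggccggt
HEY2: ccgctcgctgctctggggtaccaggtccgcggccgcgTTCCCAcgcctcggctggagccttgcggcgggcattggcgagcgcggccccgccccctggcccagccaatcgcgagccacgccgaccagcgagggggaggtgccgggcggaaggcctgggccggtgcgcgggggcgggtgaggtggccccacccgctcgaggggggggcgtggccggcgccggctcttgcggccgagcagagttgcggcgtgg
HES1 also held 3 N-boxes and 4 class C sites, motifs present in 32.0% and 26.7% of all promoters, with 2 places fitting both. No window held the TCF/LEF core, which 11.2% of all promoters did. A match is a run of letters in this window and no measurement of binding.

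**Figure D1:**
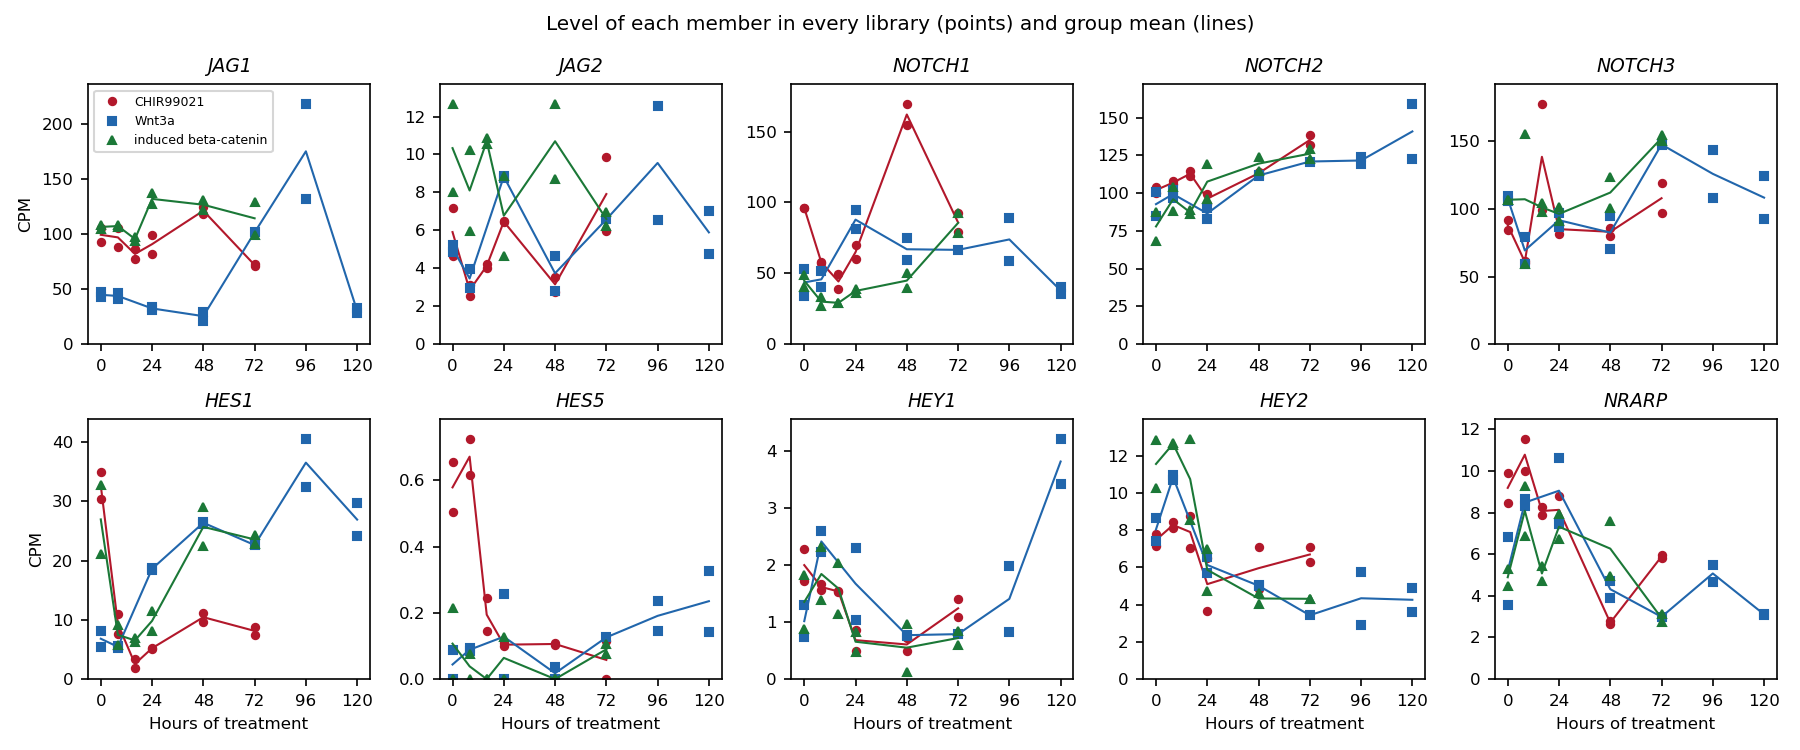
Level of the 10 members in CPM (vertical axes, each from 0) against hours of treatment, with 1 point per library, colour and shape for the arm, and lines through group means. HES1 drops to 1.82 to 3.33 CPM with CHIR99021 at 16 h while Wnt3a libraries climb to 32.5 and 40.6 CPM at 96 h, and the 48 h peak of NOTCH1 (154 and 170 CPM) occurs in the CHIR99021 arm.

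The plot of levels by library shows each member on its own scale. To compare genes with each other, 0 h CPM were divided by the length of the longest coding transcript of each gene in GENCODE release 29. In the CHIR99021 arm HES1 (19.2 and 22.1 CPM per kb) and JAG1 (17.8 and 15.7) were then the highest members. NOTCH3 (10.6 and 9.74) and NOTCH1 (10.3 and 10.3) overlapped, and NOTCH2 (9.16 and 8.76) lay just under them. NRARP followed at 5.60 and 4.79 CPM per kb and HEY2 at 2.67 and 2.92. JAG2 (0.793 and 1.23) and HEY1 (0.745 and 0.993) overlapped, and HES5 was lowest at 0.500 and 0.385.

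Of the ligands, JAG1, a membrane ligand of NOTCH receptors, changed most in the Wnt3a arm, where it dipped, then rose several-fold for a day, then dropped back. Its libraries there stood at 47.2 and 42.6 CPM at 0 h, 46.3 and 41.5 at 8 h, 34.1 and 30.9 at 24 h, 29.5 and 21.6 at 48 h, 102 at 72 h, 219 and 132 at 96 h, and 32.6 and 28.0 at 120 h. The 72 and 96 h libraries lay above, and those of 24, 48 and 120 h below, both 0 h libraries. JAG1 rose by 1.20 ± 0.20 (adjusted p = 6.50e-05, 1 library) at 72 h and 3.95-fold at 96 h (1.98 ± 0.18, adjusted p = 4.25e-10). It fell by -0.82 ± 0.18 (adjusted p = 0.00151) at 48 h, a call lost without 48 h replicate 2 (-0.60, adjusted p = 0.0712). The fall at 120 h (-0.55 ± 0.18, adjusted p = 0.0222) was lost without 0 h replicate 1 (-0.46, adjusted p = 0.0978), 0 h replicate 2 (-0.64, adjusted p = 0.0854) or 120 h replicate 2 (-0.43, adjusted p = 0.169). It was lost too with RLE scaling, without the libraries in doubt, or with this arm alone (-0.47, -0.47 and -0.51, adjusted p = 0.0533, 0.125 and 0.0882).

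Over the same hours a sum of 6 neural ectoderm markers was 45.0 and 49.9 CPM at 0 h, 57.7 to 59.6 CPM at 24 h and 100 to 108 CPM at 48 h, when JAG1 was low, then 162 CPM at 72 h, 147 to 200 CPM at 96 h and 46.4 to 60.0 CPM at 120 h, while PAX6, a defining neural gene, stayed at 0.0315 CPM or less in this arm. The endoderm factor SOX17 went from at most 0.0147 CPM to 72.2 at 72 h, 88.2 to 153 at 96 h and 82.4 to 146 at 120 h. Their part in the change of JAG1 was not tested, and in RNA from whole cultures fewer cells of a type and less RNA per cell cannot be told apart.

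In the other arms JAG1 had 1 call against 0 h. With CHIR99021 it was at 106 and 93.1 CPM at 0 h, 124 and 118 at 48 h and 71.1 and 72.9 at 72 h. The fall at 72 h (-0.47 ± 0.16, adjusted p = 0.0360) was lost without any 1 of the 4 libraries compared (-0.56 to -0.37, adjusted p up to 0.229), with RLE scaling (-0.43, adjusted p = 0.0542), without the libraries in doubt (-0.46, adjusted p = 0.0628) and with ribosomal RNA left out (-0.43, adjusted p = 0.0506). All 12 libraries of the bcat arm lay between 93.8 and 137 CPM and no change was called. Untreated JAG1 was 2.24-fold lower in the Wnt3a arm than in the CHIR99021 arm (-1.16 ± 0.17, adjusted p = 4.18e-05). An exon of JAG1 overlaps one of AL050403.2 on the other strand, and the strand setting of the counting is not given in the sources used here, so reads of the pair may not be separated.

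JAG2, the second Jagged ligand, stayed between 2.57 and 12.7 CPM in all libraries. With CHIR99021 it was at 4.63 and 7.20 CPM at 0 h, 2.57 and 3.13 at 8 h, 3.54 and 2.77 at 48 h and 5.98 and 9.85 at 72 h. The 8 and 48 h libraries lay below both 0 h libraries and those of 72 h overlapped them. Its fall at 8 h (-1.08 ± 0.34, adjusted p = 0.0236) was lost without 0 h replicate 2 (-0.71, adjusted p = 0.308), 8 h replicate 1 (-0.93, adjusted p = 0.199) or 8 h replicate 2 (-1.22, adjusted p = 0.0579). The fall at 48 h (-0.91 ± 0.34, adjusted p = 0.0414) was lost without 0 h replicate 2 (-0.54, adjusted p = 0.396), 48 h replicate 1 (-1.12, adjusted p = 0.0720) or 48 h replicate 2 (-0.75, adjusted p = 0.213), and in 4 alternative fits (adjusted p = 0.0530 to 0.0652). With Wnt3a the rise at 96 h (0.89 ± 0.35, adjusted p = 0.0450) rested on a library at 12.5 CPM beside one at 6.57. It was 0.35 (adjusted p = 0.535) without the former, 96 h replicate 1, and was also lost without 0 h replicate 1 (0.87, adjusted p = 0.0931) or 0 h replicate 2 (0.98, adjusted p = 0.243), without the libraries in doubt (0.90, adjusted p = 0.0580) and with the replicate number as a block (0.86, adjusted p = 0.0690). JAG2 shares an exon on its own strand with AL512356.1, so the assignment of those reads is uncertain.

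NOTCH1, a receptor found in many tissues, fell early with CHIR99021, stood above its 0 h level at 48 h, and was not called at 72 h. Its libraries were at 96.2 and 96.1 CPM at 0 h, 57.3 and 58.1 at 8 h, 39.3 and 49.3 at 16 h, 59.8 and 70.0 at 24 h, 170 and 154 at 48 h, and 92.5 and 79.3 at 72 h. The libraries of 8, 16 and 24 h all lay below, and those of 48 h above, both 0 h libraries. NOTCH1 fell by -0.74 ± 0.18 (adjusted p = 0.00374) at 8 h and -1.11 ± 0.19 (adjusted p = 7.40e-05) at 16 h, and rose 1.69-fold (0.75 ± 0.18, adjusted p = 0.00156) at 48 h. The fall at 24 h (-0.56 ± 0.18, adjusted p = 0.0374) was lost without any 1 of the 4 libraries (-0.68 to -0.46, adjusted p up to 0.265). From 48 to 72 h it fell 1.88-fold (-0.91 ± 0.18, adjusted p = 7.39e-04).

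At CHIR99021 48 h the summed level of 6 presomitic mesoderm markers was 114 to 131 CPM, against 6.54 to 6.63 at 0 h. MSGN1, a defining gene of that tissue, went from 0 counts to 61.4 and 80.3 CPM. TBX6, of the same list, was at 48.9 and 50.2 CPM, against 1.16 and 1.72 at 0 h. MESP2, also of that list, was lower, at 0 and 0.0687 CPM against 0.603 and 0.918 at 0 h. At the same time the pluripotency factor NANOG was at 0.550 and 0.762 CPM, against 77.3 and 82.8 at 0 h and 7.23 and 11.3 at 72 h. SOX17 was at 0 in every CHIR99021 library, although a sum of 5 endoderm markers stood at 238 to 271 CPM. Whether these cell states carry the 48 h values of NOTCH1 and NRARP was not tested.

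After induction of beta-catenin NOTCH1 rose late. It was at 40.6 and 49.0 CPM at 0 h, 33.2 and 26.9 at 8 h, 29.2 and 29.2 at 16 h, 36.4 and 38.8 at 24 h, 39.9 and 49.9 at 48 h, and 78.7 and 92.5 at 72 h. At 72 h the presomitic sum was 44.0 to 64.5 CPM against 3.23 to 6.53 at 0 h. The endoderm sum (73.5 to 77.2 against 5.29 to 6.95 CPM) and a sum of 4 neural crest markers (44.5 to 52.0 against 1.60 to 2.06 CPM) were higher too. SOX17, of the endoderm list, was not, at 0.106 and 0.223 CPM against 0 and 0.294 at 0 h. SOX10, of the neural crest list, was lower, at 0.316 and 0.520 CPM against 0.963 and 1.76 at 0 h. The sum of neural ectoderm markers was lower (5.50 to 5.59 against 34.1 to 37.8 CPM). That of endothelium markers was lower too (73.7 to 87.9 against 201 to 263 CPM). Single genes of these lists went the other way. TEK, of the endothelium list, was at 26.5 and 32.9 CPM against 2.65 and 3.42 at 0 h. SOX1, of the neural ectoderm list, was at 0.669 and 0.738 CPM against 0.294 and 0.642. The part of these states in the rise of NOTCH1 was not tested. Both 72 h libraries of NOTCH1 lay above both untreated ones, as did 48 h replicate 2 by a small margin (49.9 against 40.6 and 49.0 CPM). The rise at 72 h was 1.88-fold (0.91 ± 0.20, adjusted p = 7.32e-04), and against 48 h it was 0.94 ± 0.19 (adjusted p = 0.00228), the latter lost without 48 h replicate 1 (0.77, adjusted p = 0.0860). The fall at 8 h (-0.58 ± 0.20, adjusted p = 0.0424) was lost without 0 h replicate 2 (-0.42, adjusted p = 0.379), 8 h replicate 1 (-0.75, adjusted p = 0.0515) or 8 h replicate 2 (-0.45, adjusted p = 0.233), and with no filter (-0.50, adjusted p = 0.0685). That at 16 h (-0.64 ± 0.20, adjusted p = 0.0388) was lost without 0 h replicate 2 (-0.47, adjusted p = 0.353), 16 h replicate 1 (-0.63, adjusted p = 0.167) or 16 h replicate 2 (-0.63, adjusted p = 0.137). Both were also lost with the replicate number as a block (-0.56 and -0.62, adjusted p = 0.0633 and 0.0572).

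With Wnt3a NOTCH1 rose at 24 h. Its libraries were at 34.0 and 53.3 CPM at 0 h, 40.1 and 51.4 at 8 h, 81.1 and 94.7 at 24 h, 59.3 and 74.7 at 48 h, 66.6 at 72 h, 89.1 and 58.8 at 96 h, and 40.2 and 35.7 at 120 h. Those from 24 to 96 h lay above both 0 h libraries. The change was 0.94 ± 0.19 (adjusted p = 6.67e-04) at 24 h and ran from 0.74 to 1.37 with 1 library left out. The rise at 48 h (0.55 ± 0.19, adjusted p = 0.0467) was lost without 0 h replicate 1 (0.35, adjusted p = 0.285) or 48 h replicate 2 (0.36, adjusted p = 0.346). It was lost as well without the libraries in doubt (0.36, adjusted p = 0.308), with this arm alone (0.60, adjusted p = 0.109) and with the block (0.57, adjusted p = 0.0524), and was 0.99 (adjusted p = 0.0120) without 0 h replicate 2. At 96 h (0.69 ± 0.19, adjusted p = 0.00467) it was lost without 0 h replicate 1 (0.48, adjusted p = 0.0584), 96 h replicate 1 (0.36, adjusted p = 0.195) or the libraries in doubt (0.51, adjusted p = 0.0588), and was 1.12 (adjusted p = 0.00167) without 0 h replicate 2.

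NOTCH2, a second receptor, rose slowly in all 3 arms. It was at 104 and 99.8 CPM at CHIR99021 0 h and 132 and 138 at 72 h, at 84.7 and 101 at Wnt3a 0 h and 159 and 123 at 120 h, and at 68.2 and 87.7 at bcat 0 h and 123 and 129 at 72 h. None of these last groups overlapped its own 0 h group. The rises were 0.68 ± 0.13 (adjusted p = 1.44e-04) at bcat 72 h, 0.60 ± 0.13 (adjusted p = 7.79e-04) at bcat 48 h and 0.59 ± 0.13 (adjusted p = 6.42e-04) at Wnt3a 120 h, where it was 0.38 (adjusted p = 0.0295) without 120 h replicate 1. Less firm was the rise at CHIR99021 72 h (0.40 ± 0.12, adjusted p = 0.0134), lost without 0 h replicate 2 (0.37, adjusted p = 0.105) or 72 h replicate 2 (0.38, adjusted p = 0.0525). That at bcat 24 h (0.45 ± 0.13, adjusted p = 0.0165) was lost without 0 h replicate 1 (0.30, adjusted p = 0.199), 24 h replicate 2 (0.29, adjusted p = 0.269) or the libraries in doubt (0.44, adjusted p = 0.0815). The rise at Wnt3a 96 h (0.37 ± 0.13, adjusted p = 0.0177) was lost without 0 h replicate 1 (0.28, adjusted p = 0.108), 96 h replicate 2 (0.31, adjusted p = 0.0924) or the libraries in doubt (0.31, adjusted p = 0.0573), and with no filter (0.30, adjusted p = 0.124). The table also holds NOTCH2NL, a near copy of part of NOTCH2, at 2.35 to 14.6 CPM, so the sharing of reads between the pair is uncertain.

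NOTCH3, the third receptor, was called in none of the 16 comparisons with 0 h, although it was expressed in every library at 59.2 to 178 CPM. Replicates differed widely at CHIR99021 16 h (99.4 and 178 CPM) and bcat 8 h (155 and 59.2 CPM). At bcat 72 h both libraries (155 and 150 CPM) lay above both at 0 h (107 and 107 CPM). With this spread the error of its log2 change was 0.30 to 0.36, against 0.12 to 0.15 for NOTCH2.

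Of the effectors other than HES1, NRARP had its firmest change at CHIR99021 48 h. Its libraries in that arm were at 9.90 and 8.47 CPM at 0 h, 11.6 and 10.0 at 8 h, 7.87 and 8.28 at 16 h, 7.47 and 8.79 at 24 h, 2.65 and 2.77 at 48 h, and 5.96 and 5.82 at 72 h. The 48 h libraries lay below all others of the arm. NRARP fell 3.38-fold at 48 h (-1.76 ± 0.24, adjusted p = 6.77e-07) and rose 2.18-fold from 48 to 72 h (1.12 ± 0.24, adjusted p = 0.00156). At 48 h of this arm it was thus low while NOTCH1 was high. At 72 h it remained below 0 h by -0.64 ± 0.23 (adjusted p = 0.0380), a call lost without any 1 of the 4 libraries (-0.75 to -0.52, adjusted p up to 0.217) and in 4 alternative fits (adjusted p = 0.0520 to 0.0797).

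In the Wnt3a arm the untreated libraries of NRARP stood apart, at 3.56 and 6.83 CPM, the former from 11 counts in the shallowest library. They were followed by 8.33 and 8.64 at 8 h, 10.6 and 7.46 at 24 h, 3.92 and 4.72 at 48 h, 2.99 at 72 h, 5.47 and 4.68 at 96 h, and 3.08 and 3.14 at 120 h. NRARP had its highest group mean of this arm at 24 h (9.05 CPM), as did NOTCH1 (87.9 CPM). The 24 h libraries of NRARP lay on either side of those of 8 h, however, and no rise of NRARP was called in this arm. The falls at 72 h (-0.98 ± 0.30, adjusted p = 0.0236) and 120 h (-0.92 ± 0.26, adjusted p = 0.00752) became -0.25 and -0.19 (adjusted p = 0.785 and 0.825) without 0 h replicate 2. That at 72 h was also lost with no filter, the block, the deposited values and this arm alone (adjusted p = 0.0545 to 0.112). In the bcat arm the rise at 8 h, from 5.29 and 4.49 to 9.29 and 6.88 CPM (0.78 ± 0.27, adjusted p = 0.0397), was lost without 0 h replicate 1 (0.89, adjusted p = 0.0627), 0 h replicate 2 (0.64, adjusted p = 0.327) or 8 h replicate 1 (0.52, adjusted p = 0.334). The same held with the block, this arm alone and DESeq2 (adjusted p = 0.0608 to 0.0919). The fall from bcat 48 h (4.96 and 7.58 CPM) to 72 h (3.12 and 2.74 CPM), -1.05 ± 0.27 (adjusted p = 0.0160), was lost without 48 h replicate 2 (-0.74, adjusted p = 0.172), 72 h replicate 1 (-1.15, adjusted p = 0.0544), 72 h replicate 2 (-0.97, adjusted p = 0.144) or the libraries in doubt (-0.76, adjusted p = 0.123). With this arm alone it was -1.04 (adjusted p = 0.0569).

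HEY2, a repressor of the HEY family known from the heart and vessels, fell in the bcat and Wnt3a arms. In the bcat arm it was at 10.3 and 12.8 CPM at 0 h, 12.7 and 12.6 at 8 h, 12.9 and 8.57 at 16 h, 4.73 and 7.02 at 24 h, 4.62 and 4.05 at 48 h, and 4.31 and 4.32 at 72 h. From 24 h on every library lay below both untreated ones. The fall was -1.43 ± 0.30 (adjusted p = 6.98e-04) at 48 h and -1.45 ± 0.30 (adjusted p = 4.66e-04) at 72 h. At 24 h (-0.98 ± 0.28, adjusted p = 0.0186) the call was lost without 0 h replicate 2 (-0.78, adjusted p = 0.263), 24 h replicate 1 (-0.77, adjusted p = 0.157) or the libraries in doubt (-0.87, adjusted p = 0.193).

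With Wnt3a HEY2 was at 7.44 and 8.66 CPM at 0 h, 11.0 and 10.7 at 8 h, 6.55 and 5.71 at 24 h, 5.01 and 5.04 at 48 h, 3.43 at 72 h, 5.76 and 2.93 at 96 h, and 3.60 and 4.92 at 120 h. The libraries from 24 h on lay below both 0 h libraries. The fall at 72 h (-1.27 ± 0.35, adjusted p = 0.0110) was lost without 0 h replicate 2 (-1.12, adjusted p = 0.154). At 96 h (-0.93 ± 0.28, adjusted p = 0.00932) it was lost without 0 h replicate 2 (-0.78, adjusted p = 0.219) or 96 h replicate 2 (-0.55, adjusted p = 0.172), and was -1.50 (adjusted p = 8.84e-04) without 96 h replicate 1. At 120 h (-0.96 ± 0.29, adjusted p = 0.0135) it was lost without 0 h replicate 2 (-0.81, adjusted p = 0.255) or 120 h replicate 1 (-0.74, adjusted p = 0.133). In the CHIR99021 arm HEY2 lay between 3.68 and 8.75 CPM and no change was called.

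HEY1 and HES5 were scarce. HEY1, another HEY repressor, lay at 0.131 to 4.21 CPM. In the CHIR99021 arm it was at 1.71 and 2.28 CPM at 0 h, 0.498 and 0.865 at 24 h, and 0.722 and 0.490 at 48 h. Its fall at 48 h (-1.69 ± 0.49, adjusted p = 0.00709) was lost without 0 h replicate 2 (-1.46, adjusted p = 0.0725) or 48 h replicate 2 (-1.47, adjusted p = 0.0729). The fall at 24 h (-1.46 ± 0.50, adjusted p = 0.0457) was lost without any 1 of the 4 libraries (-2.00 to -1.21, adjusted p up to 0.254) and in 4 alternative fits (adjusted p = 0.0506 to 0.117). At Wnt3a 120 h it reached 3.41 and 4.21 CPM, its highest level in the study, from 1.29 and 0.734 at 0 h, a rise of 2.19 ± 0.53 (adjusted p = 0.00195) that was 1.55 (adjusted p = 0.227) without 0 h replicate 2.

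HES5, a HES repressor of neural progenitors, had 0 to 26 counts per library and none in 11 of the 37. It was at 0.654 and 0.503 CPM at CHIR99021 0 h, 0.726 and 0.617 at 8 h, 0.103 and 0.109 at 48 h, and 0.116 and 0 at 72 h. The falls at 48 h (-2.38 ± 0.91, adjusted p = 0.0444) and 72 h (-2.70 ± 0.91, adjusted p = 0.0285) were each lost without any 1 of the 4 libraries (adjusted p up to 0.193 and 0.132) and on the deposited values (adjusted p = 0.151 and 0.0800), and the former with DESeq2 (adjusted p = 0.200) and with the replicate number as a block (adjusted p = 0.0507). At 72 h the value was -6.67 without 72 h replicate 1, which leaves a library at 0, and -2.25 without 72 h replicate 2. In the other arms HES5 stayed at or below 0.328 CPM and no change was called.

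**Figure D2:**
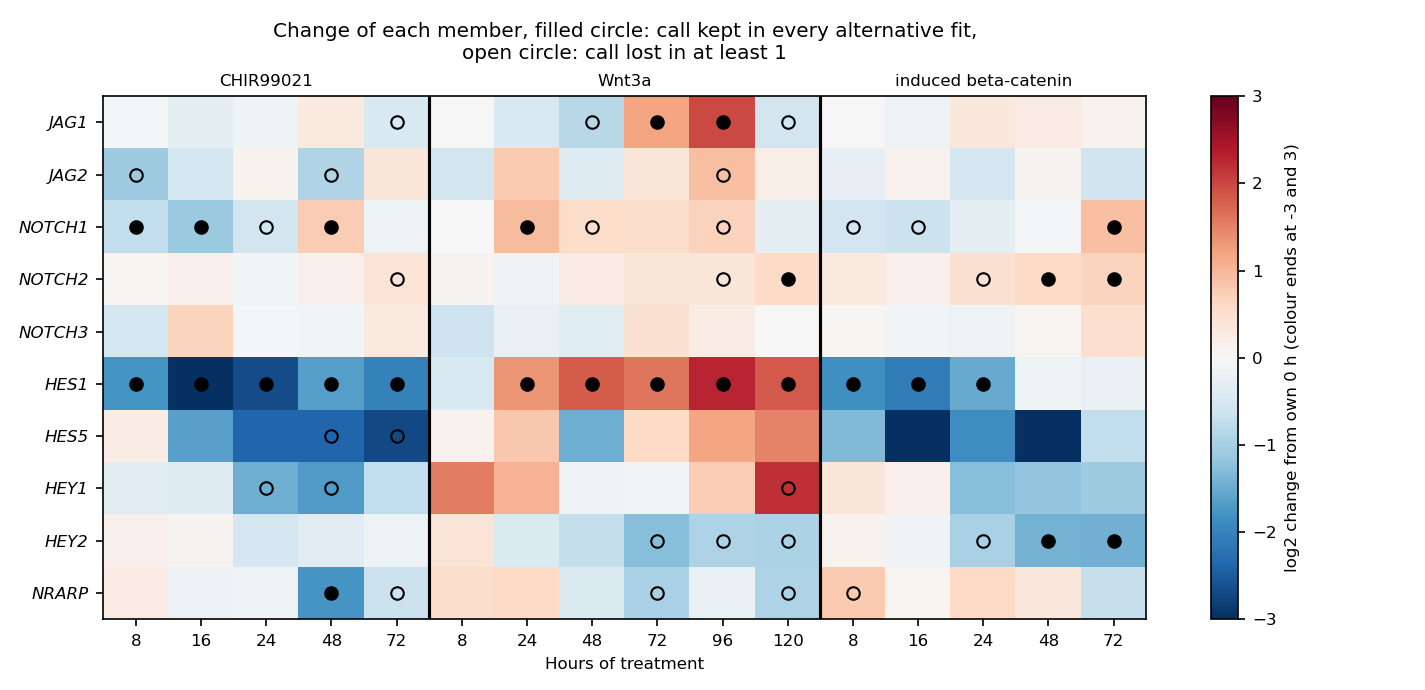
Log2 change of each member (rows) from the 0 h group of its own arm at each time (columns, hours), coloured from blue (lower) to red (higher) and clipped at -3 and 3. Circles mark adjusted p below 0.05, filled where the call held in every alternative fit and with each library left out, and HES1 is the member whose 13 calls are all filled.

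The map of changes gathers the 10 members over the 16 comparisons with 0 h. Comparisons within an arm share their 0 h libraries, so 1 such library moves all its times. With CHIR99021, of the 10 members, 3 were called at 8 h (20.9% of all 24304 genes were), 2 at 16 h (15.9%), 3 at 24 h (14.5%), 6 at 48 h (33.9%) and 5 at 72 h (24.9%). All calls from 8 to 24 h were falls, at 48 h 1 was a rise (NOTCH1) and 5 were falls, and at 72 h 1 was a rise (NOTCH2) and 4 were falls. The median change of the 10 members was -0.18, -0.33, -0.33, -0.61 and -0.31 at the 5 times (-0.32, -0.27, -0.16, -0.32 and -0.16 without the scarce HES5), and that of all genes lay between -0.02 and 0.02. At 48 h DESeq2 called 4, and at 72 h 3.

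With Wnt3a, 0 members were called by edgeR at 8 h (3.45% of genes), where 2 had unadjusted p below 0.05 and DESeq2 called 0. At 24, 48, 72, 96 and 120 h 2, 3, 4, 6 and 6 members were called, against 20.2%, 16.1%, 16.4%, 39.9% and 27.9% of all genes. The calls were 2 rises at 24 h, 2 rises and 1 fall at 48 h, 2 and 2 at 72 h, 5 and 1 at 96 h, and 3 and 3 at 120 h. Member medians were 0.04, 0.69, -0.38, 0.41, 0.72 and 0.10 (0.00, 0.61, -0.37, 0.37, 0.69 and 0.01 without HES5), and those of all genes 0.00 to 0.07. Without the libraries in doubt the count at 96 h was 3.

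In the bcat arm 3, 2, 3, 2 and 3 members were called at 8, 16, 24, 48 and 72 h, against 18.7%, 10.9%, 12.8%, 21.3% and 27.3% of all genes. There were 1 rise and 2 falls at 8 h, 2 falls at 16 h, 1 rise and 2 falls at 24 h, 1 and 1 at 48 h, and 2 rises and 1 fall at 72 h. Member medians were 0.02, -0.09, -0.39, 0.02 and -0.41 (0.03, -0.08, -0.27, 0.07 and -0.23 without HES5), and those of all genes 0.03 to 0.09. With 10 members a count of 2 or 3 is close to these shares of all genes, so the counts describe the members and do not set them apart.

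Untreated cultures of the 3 arms already differed. In the uninduced bcat line 3 members were lower than at CHIR99021 0 h, against 15.7% of genes called. NOTCH1 was lower by -1.08 ± 0.20 (adjusted p = 2.14e-04), from 96.2 and 96.1 to 40.6 and 49.0 CPM. NRARP was lower by -0.94 ± 0.27 (adjusted p = 0.0138), lost without bcat 0 h replicate 2 (-0.79, adjusted p = 0.199) or CHIR99021 0 h replicate 1 (-0.82, adjusted p = 0.0932). NOTCH2 was lower by -0.37 ± 0.13 (adjusted p = 0.0460), lost without bcat 0 h replicate 1 (-0.21, adjusted p = 0.390), either CHIR99021 0 h replicate (-0.40 to -0.34, adjusted p up to 0.188) and in 5 alternative fits (adjusted p = 0.0574 to 0.345), and -0.58 (adjusted p = 0.0173) without bcat 0 h replicate 2. The Wnt3a arm also had 3 lower members (10.9% of genes called), HES1 and JAG1 as given above, and NOTCH1 at 34.0 and 53.3 CPM, 2.10-fold lower (-1.07 ± 0.19, adjusted p = 3.68e-04, and -1.50 to -0.84 with 1 library left out).

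**Figure D3:**
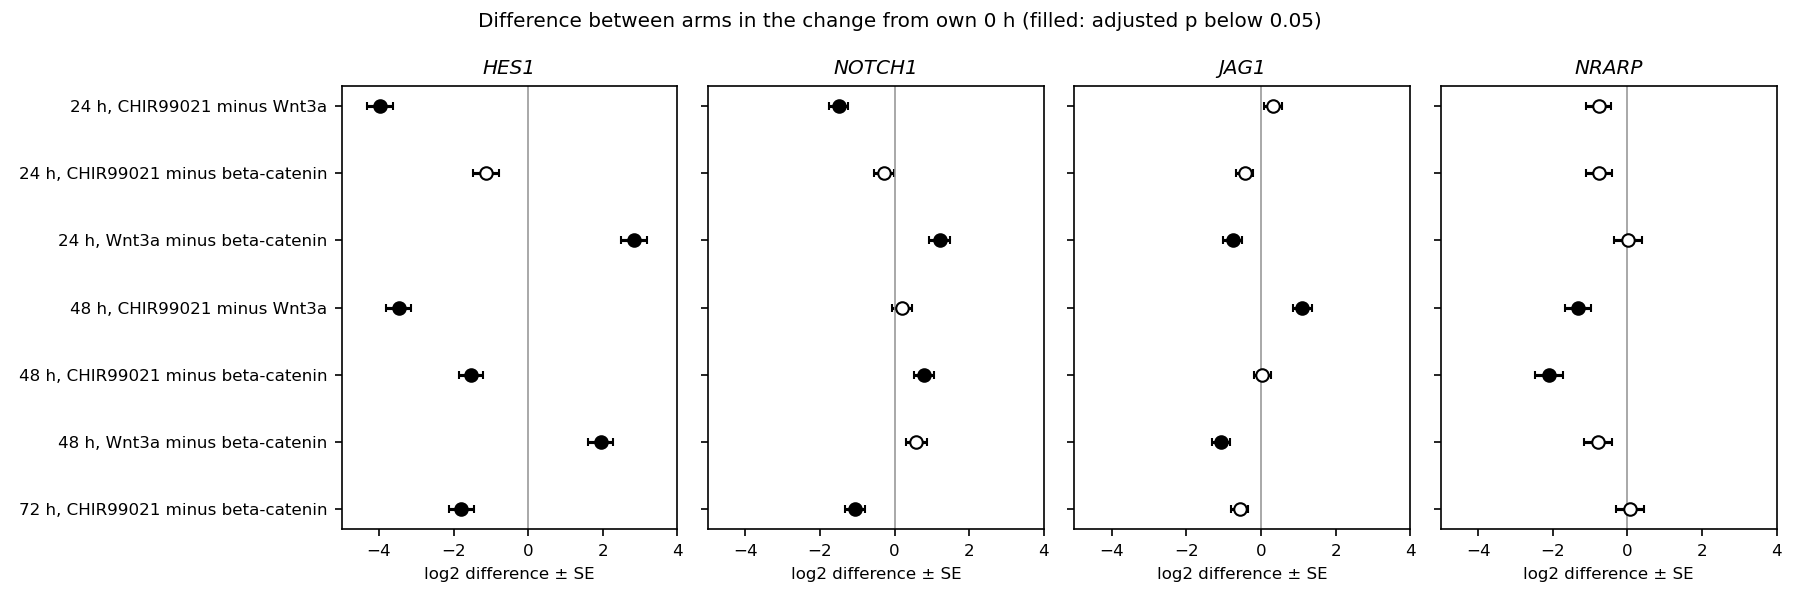
Difference between 2 arms in the log2 change from their own 0 h groups (horizontal axis, with standard error bars) for HES1, NOTCH1, JAG1 and NRARP at 24, 48 and 72 h, filled where adjusted p was below 0.05. HES1 at 24 h lies at -3.96 for CHIR99021 minus Wnt3a and at 2.83 for Wnt3a minus the bcat arm.

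The differences between arms in the change from 0 h were tested as such, and they carry the unequal 0 h levels with them. At 24 h 3 members differed between CHIR99021 and Wnt3a (9.95% of genes) and 5 between Wnt3a and the bcat arm (15.0%). Between CHIR99021 and the bcat arm edgeR called 0 (4.95%), with 3 at unadjusted p below 0.05 and 1 by DESeq2, which gave a shift of 0.15 in the median of all genes. At 48 h the counts were 3 for CHIR99021 against Wnt3a (16.1%), 3 for CHIR99021 against the bcat arm (16.5%) and 2 for Wnt3a against the bcat arm (12.1%). At 72 h 3 members differed between CHIR99021 and the bcat arm (7.2%). Member medians lay from -0.72 to 0.87 (-0.66 to 0.54 without HES5) and those of all genes from -0.14 to 0.00.

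HES1 was called in 6 of these 7 differences, all kept in every alternative fit. Its change with CHIR99021 lay below that with Wnt3a by -3.96 ± 0.35 at 24 h (adjusted p = 4.12e-09) and -3.47 ± 0.34 at 48 h (adjusted p = 4.67e-09), and below that after beta-catenin induction by -1.53 ± 0.33 at 48 h (adjusted p = 0.00112) and -1.79 ± 0.33 at 72 h (adjusted p = 5.94e-04). The change with Wnt3a lay above that of the induced line by 2.83 ± 0.35 at 24 h (adjusted p = 9.96e-07) and 1.94 ± 0.34 at 48 h (adjusted p = 1.84e-04). The levels of HES1 at 48 h overlapped, at 26.2 and 26.6 CPM with Wnt3a and 22.4 and 29.0 in the bcat arm. There the arms differed in their 0 h levels, which were 5.50 and 8.13 against 21.2 and 32.7 CPM. For NRARP at 48 h, the change with CHIR99021 lay below that after induction by -2.11 ± 0.37 (adjusted p = 1.01e-04). The 48 h libraries of NRARP stood at 2.65 and 2.77 against 4.96 and 7.58 CPM. Its 0 h levels differed the other way, at 9.90 and 8.47 against 5.29 and 4.49 CPM, and enter this difference.

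NOTCH1 also separated the arms in its change from 0 h. At 24 h the change with CHIR99021 lay below that with Wnt3a by -1.50 ± 0.26 (adjusted p = 2.90e-04). The 24 h libraries stood at 59.8 and 70.0 against 81.1 and 94.7 CPM. Those of 0 h stood at 96.2 and 96.1 against 34.0 and 53.3 CPM and enter this difference. The change with Wnt3a at 24 h lay above that of the induced line by 1.21 ± 0.27 (adjusted p = 0.00288). At 72 h CHIR99021 lay below the induced line by -1.07 ± 0.27 (adjusted p = 0.0119), lost without bcat 72 h replicate 2 (-0.96, adjusted p = 0.0577). The levels at 72 h overlapped, at 92.5 and 79.3 CPM with CHIR99021 and 78.7 and 92.5 in the bcat arm, so the arms differed in their 0 h levels, which were 96.2 and 96.1 against 40.6 and 49.0 CPM.

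The final step of both arms followed to 72 h was compared too. From 48 to 72 h of CHIR99021 4 members were called (13.0% of genes): NOTCH1 and NRARP as above, JAG1, lower by -0.75 ± 0.16 (adjusted p = 0.00175), and JAG2, higher by 1.28 ± 0.34 (adjusted p = 0.0116). The call of JAG2 was lost without 48 h replicate 2 (1.12, adjusted p = 0.112) or 72 h replicate 2 (0.92, adjusted p = 0.170). The same step of the bcat arm gave 2 called members (6.18%), NOTCH1 and NRARP, both given above and in the opposite direction to their CHIR99021 step.

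The rest of the pathway was followed over 9 lists of 53 genes, of which 51 passed the filter and were tested. With CHIR99021 6 were higher and 14 lower at 8 h, 7 and 6 at 16 h, 3 and 6 at 24 h, 15 and 13 at 48 h, and 12 and 9 at 72 h. That is 39.2%, 25.5%, 17.6%, 54.9% and 41.2% of them, against 20.9%, 15.9%, 14.5%, 33.9% and 24.9% of all genes. With Wnt3a 1 and 1 were called at 8 h, 10 and 5 at 24 h, 7 and 6 at 48 h, 9 and 5 at 72 h, 14 and 11 at 96 h, and 8 and 8 at 120 h. Their shares were 3.92%, 29.4%, 25.5%, 27.5%, 49.0% and 31.4%, against 3.45%, 20.2%, 16.1%, 16.4%, 39.9% and 27.9% of all genes. In the bcat arm 7 and 5 were called at 8 h, 3 and 4 at 16 h, 7 and 2 at 24 h, 11 and 4 at 48 h, and 18 and 6 at 72 h. Here the shares were 23.5%, 13.7%, 17.6%, 29.4% and 47.1%, against 18.7%, 10.9%, 12.8%, 21.3% and 27.3% of all genes. The median change of the 51 genes lay between -0.07 and 0.24. The largest rises at CHIR99021 48 h were those of segmentation clock genes. HES7, a clock repressor, went from 0.402 and 0.415 to 23.1 and 24.9 CPM (5.85 ± 0.45, adjusted p = 6.83e-12), DLL1, a Delta-like ligand, from 2.87 and 3.72 to 88.1 and 109 (4.92 ± 0.30), and DLL3, an inhibitory Delta-like protein, from 9.60 and 10.3 to 197 and 258 (4.51 ± 0.24). For each of these genes both 48 h libraries lay above both 0 h libraries.

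HES1, at 9.69 and 11.2 CPM, stood below its own 0 h level at that time. LFNG, which adds sugars to NOTCH receptors, had fallen in that arm at 24 h, from 17.9 and 21.4 to 1.95 and 2.49 CPM (-3.19 ± 0.24), and stood above its 0 h level at 48 h, at 31.3 and 43.1 CPM (0.93 ± 0.19, adjusted p = 2.41e-04). It also fell in the bcat arm at 16 h, from 37.2 and 39.1 to 3.24 and 3.95 CPM (-3.36 ± 0.23, adjusted p = 6.18e-12). HES3, a HES factor of early neural cells, fell to 0 and 0.137 CPM at CHIR99021 48 h (-6.56 ± 0.49) from 7.55 and 9.30, but stood at 4.86 to 9.54 CPM at 72 h. The 48 h value rests on 4 counts and was -10.55 without 48 h replicate 1, which leaves a library at 0, and -5.88 without 48 h replicate 2. DLK1, a non-canonical ligand, fell at CHIR99021 48 h (-2.50 ± 0.43).

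DLL3 and DLL1 fell after induction at 16 h (-2.04 ± 0.27 and -1.87 ± 0.31), from 13.8 and 23.9 to 3.81 and 5.37 CPM and from 11.5 and 18.1 to 3.71 and 4.52 CPM. Both were above 0 h at 72 h: DLL1 at 39.8 and 48.4 CPM (1.51 ± 0.28, adjusted p = 1.04e-04) and DLL3 at 33.4 and 47.1 CPM (1.01 ± 0.24, adjusted p = 0.00185). The latter call was lost without 72 h replicate 2 (0.75, adjusted p = 0.0505) or the libraries in doubt (0.76, adjusted p = 0.0679), and DLL3 was 1.53 without 0 h replicate 2. At 72 h HES7 was higher by 3.94 ± 0.60 (4.75 and 7.49 CPM) and MAML3, a Mastermind coactivator, by 2.89 ± 0.24 (46.1 and 58.0 CPM). NEUROG2, a proneural factor repressed by HES proteins, had 0 counts at bcat 0 h and 411 over both libraries at 72 h (13.9 and 20.7 CPM), at least 76.1-fold higher when 3 counts over the 0 h group stand for 0, a bound that covers counting error only.

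In the Wnt3a arm HES4 rose at 96 h (4.86 ± 0.52, and 3.59 to 5.03 with 1 library left out; 3.78 and 4.16 CPM from 0.117 and 0.323), as did DLK1 (3.11 ± 0.44, to 4.92 and 5.32 CPM, and 9.78 without 0 h replicate 2, which leaves a 0 h library at 0). DLL3 rose at 72 h (3.23 ± 0.29, to 47.0 CPM). HES3 fell to 0.0944 CPM at 72 h (-6.28 ± 0.62) and HES6 at 120 h to 8.91 and 10.6 CPM (-1.71 ± 0.21). DNER, a ligand of the nervous system, fell at 72 h (-1.18 ± 0.37, adjusted p = 0.0256), a call lost without 0 h replicate 2 (-0.55, adjusted p = 0.689).

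**Figure D4:**
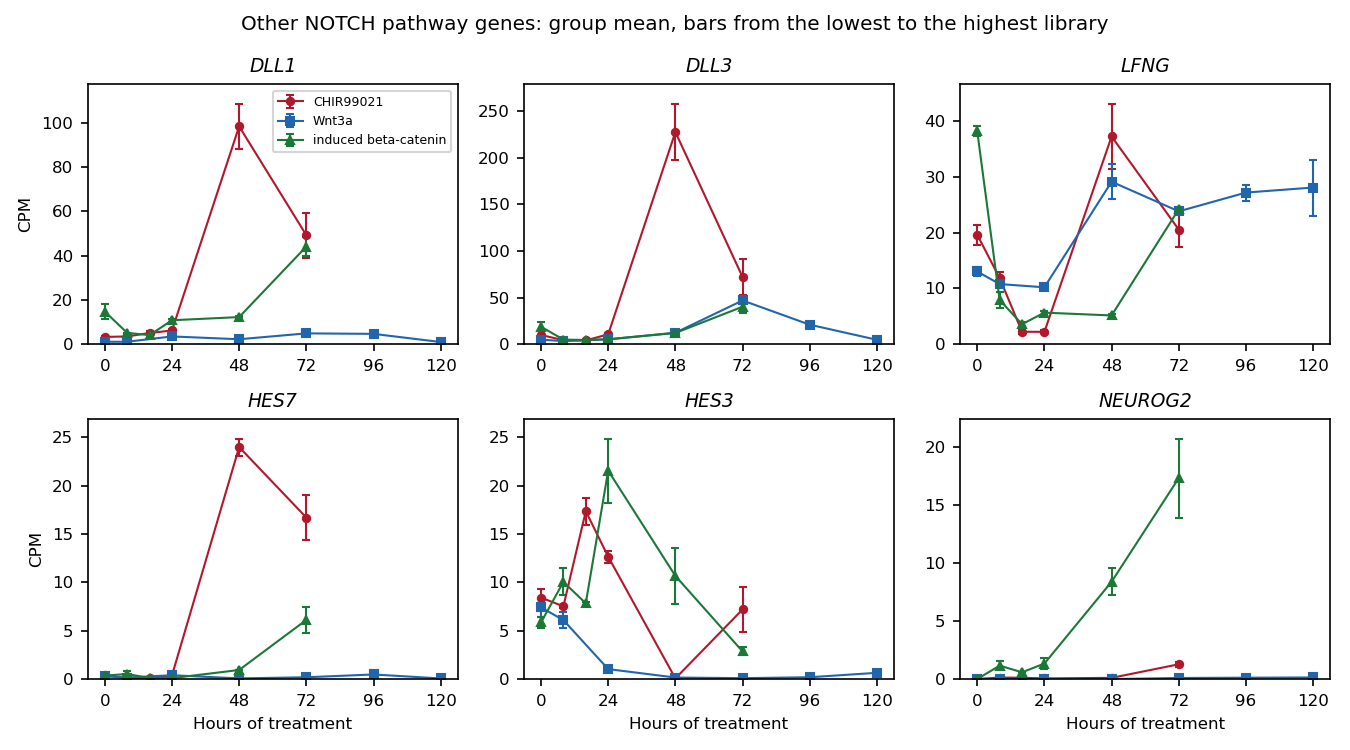
Level of 6 other pathway genes in CPM (vertical axes from 0) against hours of treatment, with markers at group means and bars from the lowest to the highest library of a group, the lone Wnt3a 72 h library having none. DLL1, DLL3 and HES7 peak with CHIR99021 at 48 h (88.1 to 109, 197 to 258 and 23.1 to 24.9 CPM), and NEUROG2 climbs to 13.9 to 20.7 CPM in the bcat arm at 72 h.

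The plot of other pathway genes sets these courses side by side. Likeness was taken as Pearson's r of group mean log2 CPM over the 19 groups, which are times of 3 arms with shared culture conditions, and is a description only. The genes most like NOTCH1 were SNAI1 (0.87), A1BG (0.86) and CCDC88C (0.85), those most like NOTCH2 TSPAN14 (0.91), FAM222A (0.89) and ID3 (0.86), and those most like NRARP RPP25 (0.91), LINC00545 (0.90) and TRIM72 (0.90). For HES1 they were LRRC4B (0.84), PDK2 (0.81) and RIMS1 (0.79), for HEY2 THYN1 (0.89), SAP18 (0.88) and MET (0.86), and for JAG1 MAP1LC3A (0.80), CCNG1 (0.80) and TMEM134 (0.79). Those of NOTCH3 were led by NDUFA6-AS1 (0.79), of JAG2 by EIF3J-AS1 (0.83), of HEY1 by ZDHHC23 (0.79) and of HES5 by ARC (0.75). Among the members themselves no pair exceeded that of HEY2 with NRARP (0.51), and the lowest value was that of HEY2 with NOTCH2 (-0.70).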

How the data were processed

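RNA was extracted with an RNeasy kit and made into stranded total RNA libraries, per the labels' protocols. The values are estimated counts that the authors made with kallisto 0.43.0, per the submitters' processing notes, and deposited after multiplication by 1 constant per library (0.265 to 6.58). That a constant was applied was inferred from the values: once it was divided out, 56.9% to 81.3% of values of 20 counts or fewer lay within 0.1 of a whole number. Neither the genome build nor the strand setting is given in the sources used here. The counts were rounded and fitted with edgeR 4.0.16 in R 4.3.3 (TMM scaling, filterByExpr, robust quasi-likelihood test) over 37 libraries in 19 groups, with Benjamini-Hochberg adjustment over 24304 genes and a threshold of 0.05. The Wnt3a 72 h columns, identical in all 43412 genes, entered as 1 library. DESeq2 1.42.0, RLE scaling, no filter, the deposited values, ribosomal RNA left out, the compared arms alone, the 4 libraries in doubt left out, the replicate number as a block, and each library except the lone Wnt3a 72 h one left out in turn were alternatives. The test was checked on simulated counts. Log2 changes are given with standard errors, and depth was 2.45 M to 65.7 M counts. Likeness was computed over group mean log2 CPM, for genes reaching 5 CPM, naming the 3 most like genes per member. From the other pathway genes reaching 2 CPM, the 3 called genes with the largest rise and the 3 with the largest fall per arm were named. The members and lists were chosen with earlier results of these data known. Positions in GENCODE release 29 were used only for lengths and overlaps.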

Additional observations from a re-analysis of the deposited data

Results flagged for a closer look

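The changes from 0 h differed between arms, by the test of the difference in edgeR's quasi-likelihood fit, for 19 combinations of member and time. At 24 h CHIR99021 minus Wnt3a was -1.50 for NOTCH1, -3.96 for HES1 and -2.50 for HEY1 (adjusted p = 2.90e-04, 4.12e-09 and 0.0244), the last lost without 4 of 8 libraries (adjusted p up to 0.286). Wnt3a minus the bcat arm was 1.21 for NOTCH1, -0.57 for NOTCH2, -0.76 for JAG1, 2.83 for HES1 and 2.31 for HEY1 (adjusted p = 0.00288, 0.0301, 0.0331, 9.96e-07 and 0.0432). With 1 of 8 libraries left out, NOTCH2 was lost in 4 fits, JAG1 in 7 and HEY1 in 4 (adjusted p up to 0.209, 0.121 and 0.463).

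At 48 h CHIR99021 minus Wnt3a was 1.11 for JAG1, -3.47 for HES1 and -1.33 for NRARP (adjusted p = 0.00142, 4.67e-09 and 0.00677), and NRARP was no longer called when replicate 2 of Wnt3a 48 h was left out (-1.17, adjusted p = 0.0563) and stood at -2.06 when replicate 2 of Wnt3a 0 h was. CHIR99021 minus the bcat arm was 0.78 for NOTCH1, -1.53 for HES1 and -2.11 for NRARP (adjusted p = 0.0471, 0.00112 and 1.01e-04), the first lost without 6 of 8 libraries (adjusted p up to 0.248). Wnt3a minus the bcat arm was -1.07 for JAG1 and 1.94 for HES1 (adjusted p = 0.00367 and 1.84e-04), the former lost without the libraries in doubt (-0.99, adjusted p = 0.0811).

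At 72 h CHIR99021 minus the bcat arm was -1.07 for NOTCH1, -1.79 for HES1 and 1.30 for HEY2 (adjusted p = 0.0119, 5.94e-04 and 0.0449). NOTCH1 was lost without bcat 72 h replicate 2 (-0.96, adjusted p = 0.0577), and HEY2 without 7 of 8 libraries (adjusted p up to 0.219).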

How the results depend on the processing

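Of 84 called member values, 43 held in every alternative and with each library left out, 40 were lost with at least 1 library left out, and none changed sign. Of 186 values not called, 71 changed sign and 22 became called in at least 1 alternative. The lone Wnt3a 72 h library could not be left out, so calls at that time were tested only without libraries of 0 h. Depth limits what can be read from HES5, which had 0 counts in 11 of 37 libraries.

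The number of members called moved as follows. At CHIR99021 72 h it was 3 with the deposited values and with DESeq2, against 5. Without the libraries in doubt it was 3 at Wnt3a 96 h, against 6, and 1 at bcat 24 h, against 3, at 48 h for Wnt3a minus the bcat arm, against 2, and from bcat 48 to 72 h, against 2. For CHIR99021 minus the bcat arm at 24 h it was 1 with no filter, the deposited values or DESeq2, against 0. With the compared arms alone it was 2 for Wnt3a minus the bcat arm at 24 h, against 5, 5 for CHIR99021 minus the bcat arm at 48 h, against 3, and 1 from bcat 48 to 72 h, against 2.

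With 1 library left out, the count ran from 1 to 1 at CHIR99021 24 h, 3 to 5 at 48 h and 1 to 2 at 72 h, from 1 to 3 at Wnt3a 48 h, 3 to 4 at 96 h and 2 to 5 at 120 h, and from 1 to 2 at bcat 16 h. It ran from 0 to 2 for CHIR99021 minus the bcat arm at 24 h and 1 to 3 at 72 h, 2 to 4 for Wnt3a minus the bcat arm at 24 h, 1 to 1 from bcat 48 to 72 h, and 1 to 2 for the uninduced bcat line against CHIR99021 0 h. The uncalled value of HES1 ran from -0.34 to 0.27 at bcat 48 h and from -0.45 to 0.16 at bcat 72 h. The cause was not tested.

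RLE scaling and DESeq2 moved the median of all genes by up to 0.12 and 0.15, both for CHIR99021 minus the bcat arm at 24 h. Same-numbered replicates did not deviate together over all tested genes (r of -0.05 to 0.06, 0 of 15 pairs of groups per arm over 0.1). A deviation shared by only some genes would not show in this r, and the labels give no pairing. With the replicate number as a block, 12 of 84 calls were lost and 1 gained, and the count fell to 1 at bcat 8 h, against 3, and to 1 at bcat 16 h, against 2.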
